A study of Mus musculus with 34 samples.

Results

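Iron transport and storage genes were followed in mouse CAD cells, as a list of 10 genes among the 37310 gene identifiers counted. The list holds Slc40a1 (ENSMUSG00000025993), Tfrc (ENSMUSG00000022797), Slc11a2 (ENSMUSG00000023030), Slc39a14 (ENSMUSG00000022094), Fth1 (ENSMUSG00000024661), Ftl1 (ENSMUSG00000050708), Ncoa4 (ENSMUSG00000056234), Hmox1 (ENSMUSG00000005413), Aco1 (ENSMUSG00000028405) and Ireb2 (ENSMUSG00000032293). The genes were picked by symbol, and Slc40a1 stands in the list because it rose most with the miR-138 mimic 2 days after serum was removed. Values of that contrast are therefore given as a description with no test, as are those of Slc40a1 in any comparison that uses its libraries. All 10 genes passed the filter on low counts in each experiment.

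CAD is a mouse catecholaminergic neuronal line derived from a brain tumour, which differentiates when serum is removed, and the study compared wild-type (WT) cells with mir-138 DKO (double knockout) cells and asked what miRNA mimics do in the knockout. The first RNA-seq experiment held DKO cells and WT cells, each 1 day without serum and in 10% serum, with 2 libraries per group. A second experiment had WT cells 4 days without serum and WT cells in serum, with 3 libraries per group. All 14 libraries of the third experiment came from DKO cells, on dishes coated with poly-l-lysine. They received a mimic of miR-138, a mimic of miR-137 or the control plasmid pUC19 and were collected 2 days without serum or in serum, beside DKO cells in serum for which no transfection is named (2 libraries per group). The last are called untransfected below for short, although no label states it. Mimics were used at 3 nM, and serum was taken away 48 h after transfection. Whether the DKO line is a single clone, and how the loci were cut, is not given in the sources used here. The genotype field of the WT libraries at 4 days reads mir-138 DKO, against their titles, the design text and the protocol, and they were analysed as WT.

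Cells take up transferrin-bound iron through the transferrin receptor Tfrc and move it into the cytosol with Slc11a2, while Slc39a14 carries iron that is not bound to transferrin. Surplus iron is kept in ferritin, a shell of Fth1 and Ftl1 chains that Ncoa4 delivers to lysosomes for release, or leaves the cell through ferroportin, Slc40a1, the only known iron exporter of mammals. The iron regulatory proteins Aco1 and Ireb2 bind hairpins in the mRNAs when iron is scarce, which stabilises Tfrc mRNA and holds back translation of the ferritin chains and ferroportin, and Hmox1 frees iron from heme. Transcription of Hmox1, Fth1, Ftl1 and Slc40a1 is also known to answer to NRF2 and to the heme sensor BACH1.

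The mature sequences of the miRNAs that the mimics are named for are shown because the third experiment turns on them. They are from RefSeq on GRCm38.p6, at chr9:122682898-122682920 (plus strand, Mir138-1) and chr3:118433901-118433923 (plus strand, Mir137), 5′ to 3′, with the seed (bases 2 to 8) in capitals. The seeds differ.
mmu-miR-138-5p: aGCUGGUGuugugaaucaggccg
mmu-miR-137-3p: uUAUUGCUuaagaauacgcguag

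Promoter windows are shown for the receptor and the ferritin chains, whose RNA levels moved in opposite directions when serum was withdrawn from WT cells. The set of RefSeq start sites available here covered 6 of the 10 genes, with 10 start sites. Slc40a1, Hmox1, Slc11a2 and Slc39a14 were missing from that set, so no window is shown for them. Each sequence is the 250 bases before a start on GRCm38.p6, 5′ to 3′ along the gene. Tfrc is the first of its 2 starts (chr16:32608646-32608895, plus strand), Fth1 the second of 2 (chr19:9982396-9982645, plus strand) and Ftl1 its single start (chr7:45459887-45460136, minus strand). Capitals mark matches on either strand to the GC box GGGCGG and to a hypoxia response element core, ACGTG or GCGTG.
Tfrc: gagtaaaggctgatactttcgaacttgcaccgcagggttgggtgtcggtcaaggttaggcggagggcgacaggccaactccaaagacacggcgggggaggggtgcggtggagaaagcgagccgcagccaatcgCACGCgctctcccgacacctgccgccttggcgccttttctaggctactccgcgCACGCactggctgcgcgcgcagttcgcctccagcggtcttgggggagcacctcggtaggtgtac
Fth1: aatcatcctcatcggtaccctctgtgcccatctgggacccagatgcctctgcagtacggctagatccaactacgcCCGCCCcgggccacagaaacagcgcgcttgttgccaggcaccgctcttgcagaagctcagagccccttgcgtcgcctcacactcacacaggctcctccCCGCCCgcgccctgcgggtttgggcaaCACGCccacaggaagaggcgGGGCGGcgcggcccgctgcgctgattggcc
Ftl1: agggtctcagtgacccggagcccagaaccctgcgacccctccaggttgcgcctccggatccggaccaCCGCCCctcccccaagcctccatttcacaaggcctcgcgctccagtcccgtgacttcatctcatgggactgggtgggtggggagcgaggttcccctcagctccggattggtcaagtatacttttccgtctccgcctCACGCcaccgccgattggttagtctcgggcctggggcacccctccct
In these windows Tfrc held 2 matches to GCGTG, Fth1 held 1 to GCGTG and 3 to GGGCGG, and Ftl1 held 1 to each. The other start of Tfrc held 1 match to ACGTG, 2 to GCGTG and 1 to GGGCGG, and the other start of Fth1 held none. The matches thus depend on which start is printed. Over 32851 mouse start sites, 38.6% of windows held ACGTG or GCGTG and 32.7% held GGGCGG, so the matches are common letters and describe no binding. The antioxidant response element core TGACNNNGC, found in 10.2% of windows, was in none of the 3 windows printed. Among the 10 start sites of the list it was in 1, the third of Ncoa4, at bases -44 to -36.

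Depth, labels and other cell types were checked first. Each library of the first experiment had between 22359075 and 41505181 reads assigned to genes. The second experiment had 19900317 to 28631969, and the third 12740836 to 25582125. Levels are given as CPM, reads per 1e6 assigned reads, scaled within each experiment. They are therefore not compared between genes, and values of different experiments stand side by side without a test. No label states separate cultures for the replicates, and the p-values then reflect only how much these libraries vary, which may be technical. In the first experiment Mir138-1, a hairpin gene that the knockout names, had 10.1 ± 1.13 CPM in DKO cells and 1.02 ± 0.499 CPM in WT cells at 1 day, and 6.83 ± 1.27 CPM in DKO cells and 0.622 ± 0.0907 CPM in WT cells in serum (SD, n = 2 each). Mir138-2 had 0 reads in all 28 libraries. Such reads do not report the mature miRNA, and the knockout is taken from the label. Of 10 catecholaminergic neuronal markers, Th and Slc18a2 were at or near 0 in every group, with no group mean of Th above 2.13 CPM. The 10 summed to 109 to 116 CPM in DKO cells at 1 day and 4210 to 4330 CPM in WT cells, and to 101 to 107 CPM in DKO cells and 1770 to 1810 CPM in WT cells in serum. Macrophage markers, of interest because macrophages carry much ferroportin, summed to at most 2.66 CPM in any library with Ptprc at 0, and red cell markers to at most 0.105 CPM.

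Slc40a1, the iron exporter, stood far apart in 1 group of the third experiment. It had 429 and 381 CPM in DKO cells with miR-138 mimic 2 days without serum, 5.74 and 6.9 CPM with miR-137 mimic, and 9.74 and 10.3 CPM with pUC19. In serum the same gene had 37.8 and 40.9 CPM with miR-138 mimic, 7.18 and 6.28 CPM with miR-137 mimic, 24.6 and 20.9 CPM with pUC19, and 10.4 and 9.26 CPM in DKO cells with no transfection named. Both libraries with miR-138 mimic at 2 days stood far above every other library, and the order below them ran from miR-138 mimic in serum through pUC19 in serum to 4 groups between 5.74 and 10.4 CPM. Among those 4, pUC19 at 2 days overlapped with no transfection named, and miR-137 mimic at 2 days overlapped with miR-137 mimic in serum. In the first experiment Slc40a1 had 23.5 and 26.8 CPM in DKO cells and 3.85 and 5.37 CPM in WT cells at 1 day, and 26.2 and 29.1 CPM in DKO cells and 5.87 and 4.43 CPM in WT cells in serum. The second experiment gave 6.33, 5.86 and 5.59 CPM in WT cells at 4 days and 1.74, 1.94 and 1.55 CPM in WT cells in serum. Groups of DKO and WT cells did not overlap, and neither did WT cells at 4 days and in serum.

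**Figure D1:**
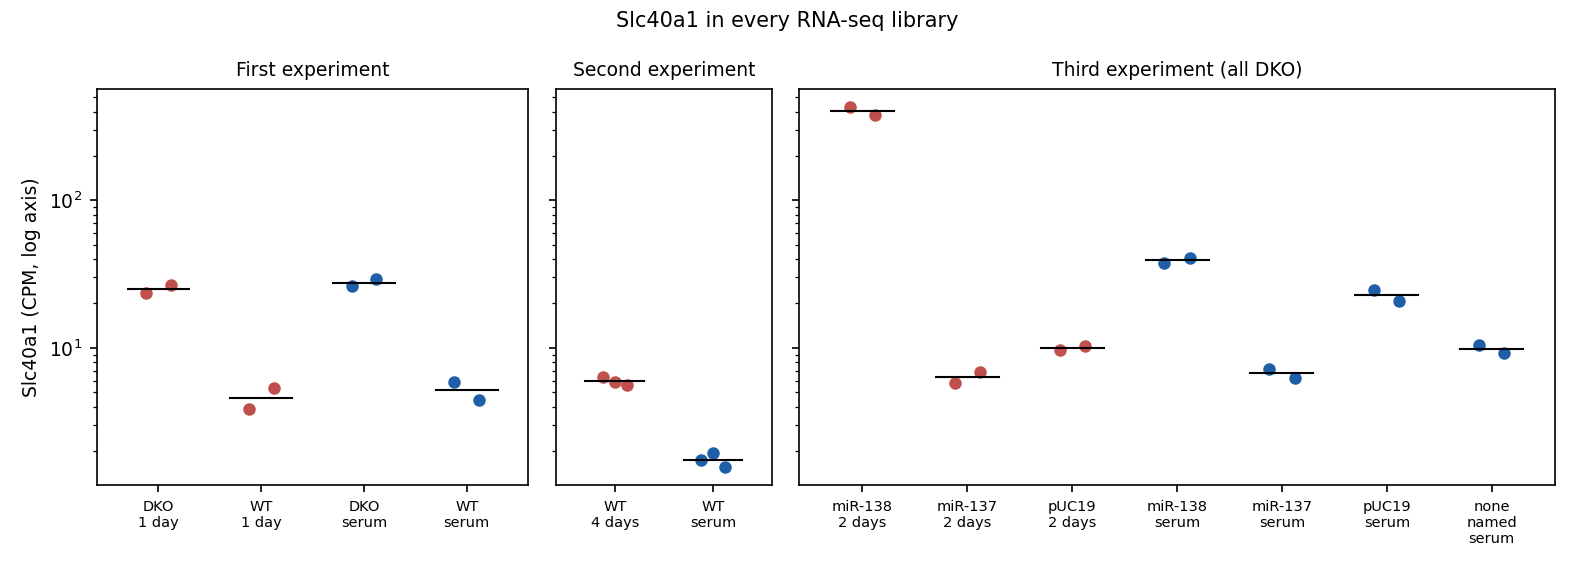
Slc40a1 in CPM on a log axis in each of the 28 RNA-seq libraries (points), with group means (lines), in the 3 experiments; red points are libraries without serum and blue points libraries in serum. The 2 libraries with miR-138 mimic 2 days without serum, at 429 and 381 CPM, lie above all others, and DKO cells lie above WT cells in the first experiment.

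The contrast that placed Slc40a1 in the list is miR-138 mimic against pUC19 2 days without serum. There its fitted log2 fold change was 5.34 (40.5-fold). It had rank 1 among 9650 genes with a mean of at least 5 CPM and no predicted, clone or accession-like name. Its rank was 8 when all genes were ranked. The next in that order were Cdk15 at 3.37, Hist1h1c at 3.25 and Elfn1 at 3.15. Tfrc had 479 and 428 CPM with the mimic and 830 and 742 CPM with pUC19, a log2 fold change of -0.79. Hmox1, the heme-degrading enzyme, had 9.62 and 12.5 CPM with the mimic and 31 and 27.1 CPM with pUC19, at -1.41. The ferritin chains stood slightly lower with the mimic, Fth1 at -0.25 (-0.11 without pUC19 library 1 and -0.39 without pUC19 library 2) and Ftl1 at -0.34, and the endosomal transporter Slc11a2 higher at 0.54. Differences of Aco1, Ireb2, Slc39a14 and Ncoa4 ran from -0.16 to 0.11, of which Aco1, at -0.07, had -0.21 without miR-138 library 1. By the threshold used elsewhere, 2 of the 10 genes were higher and 4 lower, against 30.9% and 31.1% of the 12655 genes tested, and nothing is read from that count because the list was chosen on this contrast. Fibroblast markers summed to 36.5 to 37.8 CPM with the mimic and 24 to 26.2 CPM with pUC19, mostly as Dcn (32 and 20.5 CPM). Of 5, 4 were measured in the test, with 1 higher by the same threshold and 3 not past it, and Col3a1 was at 0. Pdgfra lay the other way, at 0.712 and 1.16 CPM. Glial markers summed to 17.2 to 18.6 CPM with the mimic and 9.8 to 10.7 CPM with pUC19, mostly as Aqp4 (14.6 and 6.46 CPM), with 3 of 6 measured in the test and S100b at 0.123 and 0 CPM. Their part in the result was not tested.

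Over the 14 libraries of the third experiment, the genes whose log2 CPM followed Slc40a1 most closely by Pearson's r were Lhfpl2 (0.971), Twist1 (0.971), Map3k10 (0.966), Nrn1 (0.962) and Dgkh (0.959). They came from 9649 genes with a mean of at least 5 CPM and no predicted, clone or accession-like name. The libraries share 7 treatment groups, and the 2 libraries at the top weigh heavily, so these values are a description. Dgkh, a diacylglycerol kinase, averaged 79.2 CPM with miR-138 mimic at 2 days, 12.1 CPM with miR-137 mimic and 13.4 CPM with pUC19. Nrn1, a neurite-promoting protein, averaged 404 CPM with miR-138 mimic at 2 days, 152 CPM with miR-137 mimic and 167 CPM with pUC19. Within the list, Slc11a2 stood nearest with r = 0.63 and Tfrc farthest with r = -0.84.

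The genotype comparison asked whether cells labelled DKO differ from WT cells. Slc40a1 was higher in DKO cells on the log2 scale by 2.44 ± 0.19 (SE; 5.42-fold, adjusted p = 8.32e-08 by edgeR's quasi-likelihood test) at 1 day and by 2.43 ± 0.18 (5.39-fold, adjusted p = 7.67e-08) in serum. Fth1, the ferritin heavy chain, had 2230 and 2420 CPM in DKO cells and 942 and 928 CPM in WT cells at 1 day, and 2600 and 2680 CPM in DKO cells and 1350 and 1400 CPM in WT cells in serum. It was higher in DKO cells with no overlap, by 1.31 ± 0.05 at 1 day (adjusted p = 7.58e-11) and 0.94 ± 0.05 in serum (adjusted p = 2.92e-09). Hmox1 had 76.8 and 84 CPM in DKO cells and 17.1 and 22.3 CPM in WT cells at 1 day, and 62.1 and 70.9 CPM in DKO cells and 50.3 and 49.1 CPM in WT cells in serum. Its log2 fold change was 2.03 ± 0.12 at 1 day (adjusted p = 4.99e-09) and 0.42 ± 0.11 in serum (adjusted p = 0.00756). Slc11a2 was higher in DKO cells in serum, by 0.51 ± 0.09 (adjusted p = 0.000295), and at 1 day, by 0.29 ± 0.09 (adjusted p = 0.0167). Ftl1, the light chain, was higher in DKO cells at 1 day, by 0.4 ± 0.07 (adjusted p = 0.000435), and had -0.08 ± 0.07 in serum (95% interval -0.23 to 0.06). Tfrc was higher in DKO cells in serum, by 0.32 ± 0.09 (adjusted p = 0.0118), and had -0.14 ± 0.09 at 1 day (95% interval -0.32 to 0.04).

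In all, 5 of 10 genes were higher and 0 lower in DKO cells in serum, against 19.2% and 21.5% of the 13630 genes tested, and again 5 higher and 0 lower at 1 day, against 21.9% and 23% of genes. At an unadjusted p under 0.05, Ncoa4 was also lower in DKO cells in serum, at -0.26 ± 0.12 (adjusted p = 0.0968), with 27.4 and 25.3 CPM in DKO cells and 33.2 and 29.9 CPM in WT cells. Aco1, Ireb2 and Slc39a14 had log2 fold changes between -0.1 and 0.12 in both states. Most neuronal markers went the opposite way to the 5 iron genes called. In DKO cells in serum 7 of the 9 that could be tested were lower and 2 higher, and the sums of all 10 did not overlap between genotypes. Fibroblast markers summed to 9.91 to 10.4 CPM in DKO cells and 2.17 to 3 CPM in WT cells at 1 day, and to 8.01 to 8.8 CPM in DKO cells and 1.46 to 1.49 CPM in WT cells in serum, with Col3a1 at 0. The part of these markers in the result was not tested, and in bulk RNA fewer cells of a type cannot be told apart from less RNA per cell. The call of Tfrc in serum was lost without DKO library 2 in serum (0.13) or WT library 1 in serum (0.3), with adjusted p of 0.0786 and 0.0946 (0.49 without DKO library 1 in serum), and that of Hmox1 in serum without WT library 2 in serum (adjusted p = 0.0656). At 1 day the call of Slc11a2 was lost whichever of the 4 libraries was left out, with adjusted p of 0.0568 to 0.0716.

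Serum withdrawal in WT cells raised the receptor and lowered ferritin. Tfrc had 686 and 752 CPM at 1 day and 341 and 356 CPM in serum in the first experiment, and 394, 547 and 474 CPM at 4 days and 189, 169 and 162 CPM in serum in the second. All libraries without serum lay above those in serum, by 1.04 ± 0.09 at 1 day (adjusted p = 1.06e-06) and 1.45 ± 0.11 at 4 days (adjusted p = 3.99e-08). Fth1 fell in WT cells by 0.56 on the log2 scale at 1 day (SE 0.05, adjusted p = 1.49e-06), and at 4 days it had 406, 377 and 411 CPM against 1170, 1210 and 1220 CPM in serum, at -1.59 ± 0.07 (adjusted p = 2.48e-10). Ftl1 had 719 and 716 CPM at 1 day and 1080 and 1270 CPM in serum, at -0.71 ± 0.07 (adjusted p = 3.71e-06). At 4 days Ftl1 had 359, 294 and 383 CPM and in serum 1240, 1260 and 1310 CPM, at -1.88 ± 0.09 (adjusted p = 7.32e-10), which is 3.67-fold lower. Hmox1 fell at 1 day by 1.33 (SE 0.12, adjusted p = 1.08e-06) and at 4 days by 1.43 (SE 0.17, adjusted p = 3.3e-06), with 13.6, 9.45 and 9.9 CPM at 4 days and 32.8, 27.1 and 29.1 CPM in serum.

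Slc40a1 rose in WT cells at 4 days, by 1.76 ± 0.3 (3.39-fold, adjusted p = 0.000143), resting on 124 to 166 reads per library at 4 days and 36 to 52 reads in serum. At 1 day it had -0.14 ± 0.2 (95% interval -0.53 to 0.25). Slc39a14, the importer of iron free of transferrin, had 25.6 and 26.8 CPM at 1 day and 34.8 and 38.4 CPM in serum (-0.48 ± 0.1, adjusted p = 0.00187), and 25.1, 25.6 and 26.5 CPM at 4 days and 36.4, 32.4 and 37.3 CPM in serum (-0.46 ± 0.11, adjusted p = 0.00267). Slc11a2 fell by 0.29 at 1 day (SE 0.09, adjusted p = 0.0181) and by 0.5 at 4 days (SE 0.11, adjusted p = 0.00104). Aco1, the iron regulatory protein that doubles as an aconitase, rose by 0.26 ± 0.08 at 1 day (adjusted p = 0.0173) and fell by 0.22 at 4 days (SE 0.09, adjusted p = 0.0421). Ireb2 and Ncoa4 did not pass at either time, with 95% intervals of -0.35 to 0.18 and -0.29 to 0.24 at 4 days.

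Of 10 genes 2 rose and 5 fell in WT cells at 1 day, against 20.4% and 20.3% of the 13630 genes tested, and 2 rose and 6 fell at 4 days, against 36.2% and 34.7% of 13283 genes. Neuronal markers summed to 4210 to 4330 CPM at 1 day and 1770 to 1810 CPM in serum. The sums were 7910 to 10100 CPM at 4 days and 2100 to 2180 CPM in serum. Most of the rise was Chgb, with means of 2890 and 904 CPM and then 7430 and 1150 CPM. Of 9 neuronal markers tested, 6 rose and 2 fell at 1 day, and 5 rose and 2 fell at 4 days. Dbh averaged 11.8 CPM at 1 day and 69.4 CPM in serum, and 5.69 CPM at 4 days and 54.9 CPM in serum. Fibroblast markers summed to 2.17 to 3 CPM at 1 day and 1.46 to 1.49 CPM in serum, and to 7.23 to 8.56 CPM at 4 days and 0.559 to 1.55 CPM in serum, where 3 of the 3 tested were higher and Col3a1 was at 0. The part of these markers in the changes was not tested. At 1 day the calls of Aco1 and Slc11a2 were lost whichever library was left out, with adjusted p of 0.0564 to 0.162 and 0.0604 to 0.0976. At 4 days the call of Aco1 was lost under 8 of 11 alternatives (adjusted p of 0.051 to 0.134), 5 of which leave out a library (any but library 1 at 4 days), and Ireb2 had -0.29 (adjusted p = 0.0322) without WT library 2 at 4 days.

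In DKO cells the receptor also rose and ferritin also fell 1 day without serum. Tfrc had 654 and 653 CPM at 1 day and 380 and 493 CPM in serum, a rise of 0.58 ± 0.09 (adjusted p = 0.000187). Slc11a2 had 38.7 and 39.9 CPM at 1 day and 55.3 and 56.9 CPM in serum, a fall of 0.51 on the log2 scale (SE 0.09, adjusted p = 0.000323). Fth1 fell by 0.18 (SE 0.05, adjusted p = 0.0109), Ftl1 fell by 0.23 (SE 0.07, adjusted p = 0.0217) and Aco1 rose by 0.27 ± 0.08 (adjusted p = 0.0132). Slc40a1 had -0.13 ± 0.16 (95% interval -0.45 to 0.18), and Hmox1 had 0.28 ± 0.11 with adjusted p = 0.0571. Of 10 genes 2 rose and 3 fell, against 19.9% and 20.4% of genes. Glial markers summed to 6.87 to 8.04 CPM at 1 day and 4.56 to 5.07 CPM in serum, and fibroblast markers to 9.91 to 10.4 CPM and 8.01 to 8.8 CPM in that order, with none of 4 and 3 tested past the threshold and Mog and Col3a1 at 0. Their part was not tested.

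The difference between the genotypes in this response was tested as an interaction, DKO minus WT. Hmox1 stood at 0.28 in DKO cells and at -1.33 in WT cells, an interaction of 1.61 ± 0.16 (adjusted p = 2.51e-05). The ferritin chains fell less in DKO cells, with 0.48 ± 0.1 for Ftl1 (adjusted p = 0.00864) and 0.37 ± 0.07 for Fth1 (adjusted p = 0.00509), and Tfrc rose less, at -0.46 ± 0.13 (adjusted p = 0.0389). Slc40a1 had 0.01 ± 0.25 (95% interval -0.49 to 0.51). With 3 of 10 genes higher and 1 lower, the list stands beside 5.36% and 4.37% of the 13630 genes tested. The interaction of Tfrc was lost under 7 of 13 alternatives (adjusted p of 0.0573 to 0.172), 6 of which leave out a library (any but those of DKO cells in serum, where it had -0.23 without library 2), and that of Ftl1 without WT library 2 in serum (adjusted p = 0.0547). Without DKO library 1 at 1 day the falls of Fth1 and Ftl1 in DKO cells were also lost (adjusted p = 0.115 and 0.194), and the call of Aco1 was lost without either DKO library at 1 day (adjusted p of 0.0547 to 0.0869). Hmox1 in DKO cells passed under 4 of 10 alternatives, with adjusted p of 0.00512 to 0.048, and Ireb2 passed at 0.28 (adjusted p = 0.00379) without DKO library 2 in serum.

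**Figure D2:**
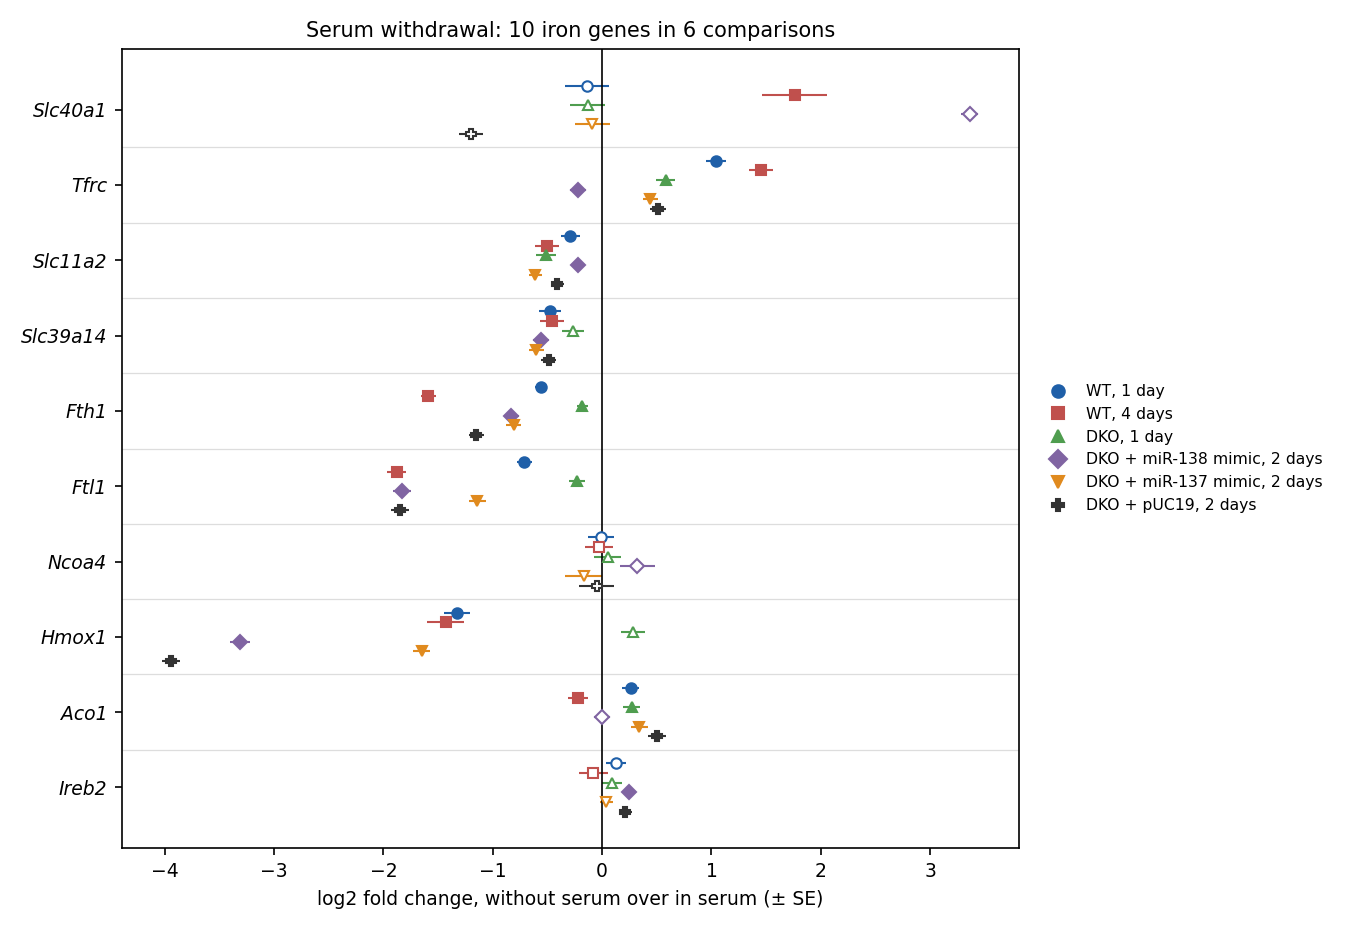
Log2 fold changes (± SE) of the 10 genes, cells without serum over cells in serum, in 6 comparisons of the 3 experiments; filled symbols passed edgeR's test, open ones did not or, for Slc40a1 with miR-138 mimic (3.36) and pUC19 (-1.2), are a description. Fth1 and Ftl1 lie left of 0 in all 6 comparisons, and Tfrc lies right of 0 except with miR-138 mimic (-0.22).

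In the third experiment the transfected DKO cells were compared in serum, first with pUC19. Cells given pUC19 differed widely in Hmox1 from DKO cells with no transfection named. Hmox1 had 451 and 443 CPM with pUC19 and 86.8 and 88.6 CPM without. It was higher with pUC19 by 2.35 ± 0.07 (5.09-fold, adjusted p = 8.2e-15 by edgeR's quasi-likelihood test). Slc40a1 was higher with pUC19 by 1.23 ± 0.11 (adjusted p = 1.35e-07) and Ftl1 by 0.58 ± 0.07 (adjusted p = 6.66e-06), while Tfrc was lower at -0.36 ± 0.07 (adjusted p = 0.000609) and Ireb2 at -0.31 ± 0.06 (adjusted p = 0.000553). Of 10 genes 5 were higher and 3 lower with pUC19, against 10.7% and 15.5% of the 12655 genes tested. The calls of Aco1 (-0.22 ± 0.08) and Slc11a2 (0.16 ± 0.06) were each lost under 7 of 10 alternatives, among them all 4 that leave out a library, with adjusted p of 0.0509 to 0.175 and 0.0508 to 0.313. That of Fth1 (0.21 ± 0.07) was lost without either untransfected library or pUC19 library 2, with adjusted p of 0.0924 to 0.127. These labels set the groups apart by transfection, and the titles of the untransfected cells carry a mark, DKO_2, whose meaning is not stated. Plasmid, transfection procedure and culture therefore cannot be told apart.

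With miR-138 mimic in serum, Slc40a1 was higher than with pUC19 by 0.78 ± 0.09 (1.71-fold, adjusted p = 4.12e-07). Hmox1 had 106 and 112 CPM with the mimic, at -2.03 ± 0.07 against pUC19 (4.09-fold lower, adjusted p = 2.46e-14). Fth1 had 2830 and 2840 CPM with the mimic and 4150 and 4260 CPM with pUC19, at -0.57 ± 0.07 (adjusted p = 7.14e-07), and Ftl1 had -0.36 ± 0.07 (adjusted p = 0.000196). Slc11a2 had 98.3 and 96 CPM with the mimic and 76.9 and 76.7 CPM with pUC19, at 0.34 ± 0.05 (adjusted p = 2.78e-05), and Aco1 had 93.3 and 88.4 CPM with the mimic and 66.7 and 67.7 CPM with pUC19, at 0.43 ± 0.07 (adjusted p = 5.76e-05). Ncoa4, the receptor for ferritin breakdown, rested on 125 and 116 reads with the mimic and 127 and 79 reads with pUC19, at -0.52 ± 0.16 (adjusted p = 0.00768). That call was lost without miR-138 library 2 or pUC19 library 1 (adjusted p of 0.0718 to 0.1). Of 10 genes 3 were higher and 4 lower, against 28.7% and 27.3% of genes. Neuronal markers summed to 75 to 79 CPM with the mimic and 111 CPM with pUC19 (2 of 8 tested higher and 3 lower). Fibroblast markers summed to 9.93 to 12.1 CPM with the mimic and 7.07 to 7.21 CPM with pUC19 (1 of 4 tested higher). The part of these markers was not tested.

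The miR-137 mimic in serum went the other way for Slc40a1, at -1.77 ± 0.13 against pUC19 (3.4-fold lower, adjusted p = 9.17e-10). It rested on 108 and 88 reads with the mimic. Hmox1 had 129 and 118 CPM with miR-137 mimic, at -1.86 ± 0.07 against pUC19 (adjusted p = 1.8e-13), and Ftl1 had -0.4 ± 0.07 (adjusted p = 0.000111). Fth1 had 0.13 ± 0.07 (95% interval 0 to 0.26). Of 10 genes 2 were higher and 3 lower, against 23.1% and 22.5% of genes. The sum of fibroblast markers was 4.07 to 4.79 CPM with the mimic and 7.07 to 7.21 CPM with pUC19. That of glial markers was 1.86 to 2.57 CPM and 4.42 to 4.71 CPM in that order. Neuronal markers summed to 162 to 170 CPM and 111 CPM, with Tubb3 at 71.1 and 32.2 CPM and Gap43 at 79.3 and 47.5 CPM. Of 8 neuronal markers tested, 2 were higher and 2 lower. The part of these markers was not tested. The 2 iron genes that were higher rest on single libraries. Tfrc (0.23 ± 0.07) and Slc39a14 (0.17 ± 0.07) were lost without miR-137 library 1 or pUC19 library 2. Tfrc then had 0.17 to 0.2, and Slc39a14 had 0.1 and 0.09, and 0.27 without pUC19 library 1.

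Because pUC19 stood apart from the untransfected cells, both mimics were also set against DKO cells with no transfection named, a comparison chosen after seeing the data. Slc40a1 was then 2 ± 0.1 higher with miR-138 mimic (4.01-fold, adjusted p = 2.55e-12) and at -0.54 ± 0.14 with miR-137 mimic (adjusted p = 0.00315). Hmox1 was higher with both, by 0.32 ± 0.07 with miR-138 mimic (adjusted p = 0.000451) and 0.49 ± 0.07 with miR-137 mimic (adjusted p = 6.98e-06), so its direction depends on which control is used. Ftl1 also turned, to 0.22 ± 0.07 with miR-138 mimic (adjusted p = 0.0103) and 0.17 ± 0.07 with miR-137 mimic (adjusted p = 0.0479). Fth1 was lower with miR-138 mimic at -0.36 ± 0.07 (adjusted p = 0.000134) and higher with miR-137 mimic at 0.34 ± 0.07 (adjusted p = 0.000316), and Slc11a2 was higher with miR-138 mimic by 0.5 ± 0.05 (adjusted p = 1.6e-07). With miR-138 mimic 6 of 10 genes were higher and 4 lower, against 29.5% and 30.6% of genes, and with miR-137 mimic 4 were higher and 2 lower, against 23.7% and 27.5%. With miR-138 mimic, the calls of Aco1, Ftl1, Ncoa4 and Slc39a14 rest on single libraries: leaving out miR-138 library 1 ended those of Aco1, Ftl1 (0.13, adjusted p = 0.179) and Slc39a14, miR-138 library 2 those of Ncoa4 and Slc39a14, untransfected library 1 those of Ftl1, Ncoa4 and Slc39a14, and untransfected library 2 those of Aco1 and Slc39a14. With miR-137 mimic, the call of Ftl1 ended without miR-137 library 1 (0.07, adjusted p = 0.528) or either untransfected library and had 0.26 without miR-137 library 2, and that of Slc39a14 without miR-137 library 1 (adjusted p = 0.14).

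**Figure D3:**
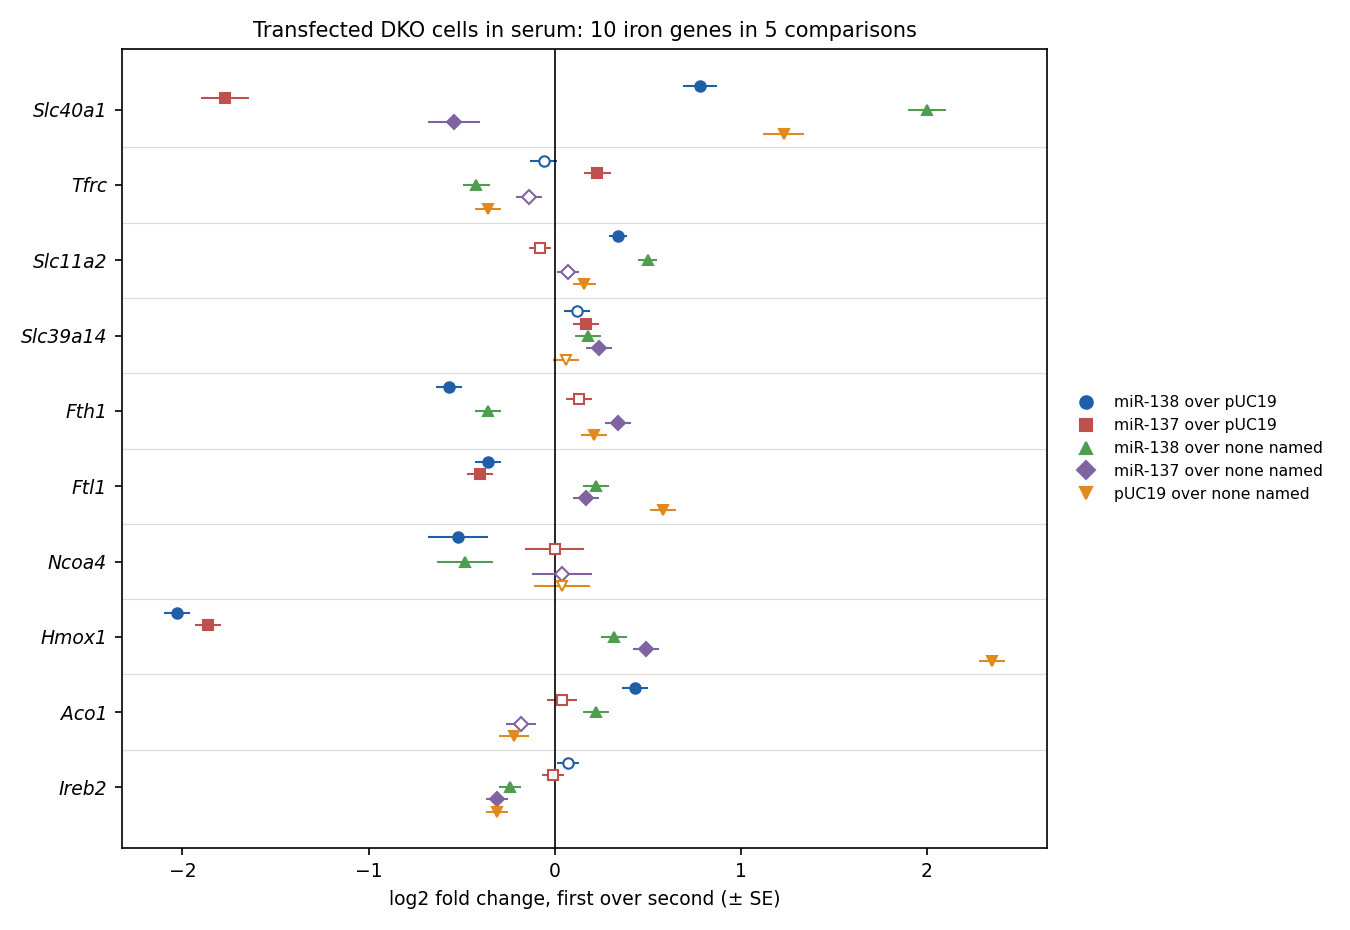
Log2 fold changes (± SE) of the 10 genes in DKO cells in serum for 5 pairs of groups of the third experiment; filled symbols passed edgeR's test and open ones did not. Slc40a1 lies right of 0 for miR-138 mimic against both controls (0.78 and 2) and left of 0 for miR-137 mimic (-1.77 and -0.54), and Hmox1 changes side with the control.

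Set directly against each other in serum, miR-138 and miR-137 mimic cells differed in Slc40a1 by 2.54 ± 0.11 (5.83-fold, adjusted p = 2.69e-13). Fth1 was lower with miR-138 mimic at -0.7 ± 0.07 (2830 and 2840 CPM against 4730 and 4460 CPM, adjusted p = 2.57e-08) and Tfrc at -0.29 ± 0.07 (533 and 526 CPM against 660 and 632 CPM, adjusted p = 0.00102). Slc11a2 was higher by 0.42 ± 0.06 (adjusted p = 1.38e-06) and Aco1 by 0.39 ± 0.07 (adjusted p = 0.000124). Of 10 genes 3 were higher and 4 lower, against 32.7% and 30.7% of genes. Fibroblast markers summed to 9.93 to 12.1 CPM with miR-138 mimic and 4.07 to 4.79 CPM with miR-137 mimic (2 of 4 tested higher, Col3a1 at 0). Glial markers summed to 4.29 to 5.41 CPM and 1.86 to 2.57 CPM in that order (3 of 3 tested higher, Mog at 0). Neuronal markers summed to 75 to 79 CPM and 162 to 170 CPM. That difference lay mostly in Tubb3 (11.4 and 71.1 CPM) and Gap43 (36.7 and 79.3 CPM). Of 8 neuronal markers tested, 3 were higher with miR-138 mimic and 2 lower. The part of these markers was not tested. Hmox1 (-0.17 ± 0.07) and Ncoa4 (-0.52 ± 0.16) were each lost in 2 of the 4 fits that leave out a library, with adjusted p of up to 0.309 and 0.0658. Those fits lacked miR-137 library 1 for both genes, miR-138 library 1 for Hmox1 and miR-138 library 2 for Ncoa4, and Hmox1 had -0.1 without miR-137 library 1.

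The other contrasts between transfected cells were made 2 days without serum. In miR-138 against miR-137 mimic cells, Slc40a1 stood 6 log2 units apart, as a description. Tfrc had 479 and 428 CPM with miR-138 mimic and 863 and 888 CPM with miR-137 mimic, at -0.95 ± 0.07 (adjusted p = 3.79e-10). Hmox1 had 9.62 and 12.5 CPM with miR-138 mimic and 39.1 and 39.6 CPM with miR-137 mimic, at -1.84 ± 0.1 (3.58-fold lower, adjusted p = 9.22e-12). Both ferritin chains were lower with miR-138 mimic, Fth1 at -0.72 ± 0.07 (adjusted p = 2.1e-08) and Ftl1 at -0.65 ± 0.09 (adjusted p = 1.86e-06). Slc11a2 was higher, with 86 and 81.2 CPM against 47.7 and 47.4 CPM, at 0.82 ± 0.06 (adjusted p = 5.29e-10), and Ireb2 was higher by 0.29 ± 0.06 (adjusted p = 0.000201). Of the 9 genes other than Slc40a1, 2 were higher and 4 lower, against 30.8% and 30.8% of genes, and every one of these calls held in each fit that left out a library. The fibroblast markers summed to 36.5 to 37.8 CPM with miR-138 mimic and 14.3 to 14.9 CPM with miR-137 mimic (1 of 4 tested higher, Col3a1 at 0). Glial markers summed to 17.2 to 18.6 CPM and 7.56 to 9.08 CPM in that order (1 of 3 tested higher). Neuronal markers summed to 133 to 148 CPM and 347 to 367 CPM, a difference mostly in Tubb3 (8.9 and 244 CPM). Of 8 neuronal markers tested, 4 were higher with miR-138 mimic and 2 lower, and Ddc averaged 19.9 and 0.453 CPM. The part of these markers was not tested.

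In miR-137 mimic against pUC19 cells at 2 days, Fth1 was higher by 0.47 ± 0.07 (2700 and 2550 CPM against 2080 and 1710 CPM, adjusted p = 1.39e-05), Hmox1 by 0.44 ± 0.09 (adjusted p = 0.00046) and Ftl1 by 0.3 ± 0.08 (adjusted p = 0.0056). Slc11a2 was lower at -0.28 ± 0.06 (adjusted p = 0.00117) and Ireb2 at -0.18 ± 0.06 (adjusted p = 0.0135). Slc40a1 stood at -0.66 as a description. Of 9 genes 3 were higher and 2 lower, against 20.5% and 22.2% of genes. Neuronal markers summed to 347 to 367 CPM with the mimic and 103 to 126 CPM with pUC19 (4 of 8 tested higher and 2 lower). Fibroblast markers summed to 14.3 to 14.9 CPM with the mimic and 24 to 26.2 CPM with pUC19 (2 of 4 tested lower). The part of these markers was not tested. Ftl1 was lost without miR-137 library 1 (adjusted p = 0.073), and Ireb2 without that library or pUC19 library 1 (adjusted p of 0.11 to 0.131). Tfrc, at 0.16 ± 0.07 (adjusted p = 0.0693), passed under 5 of 10 alternatives.

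**Figure D4:**
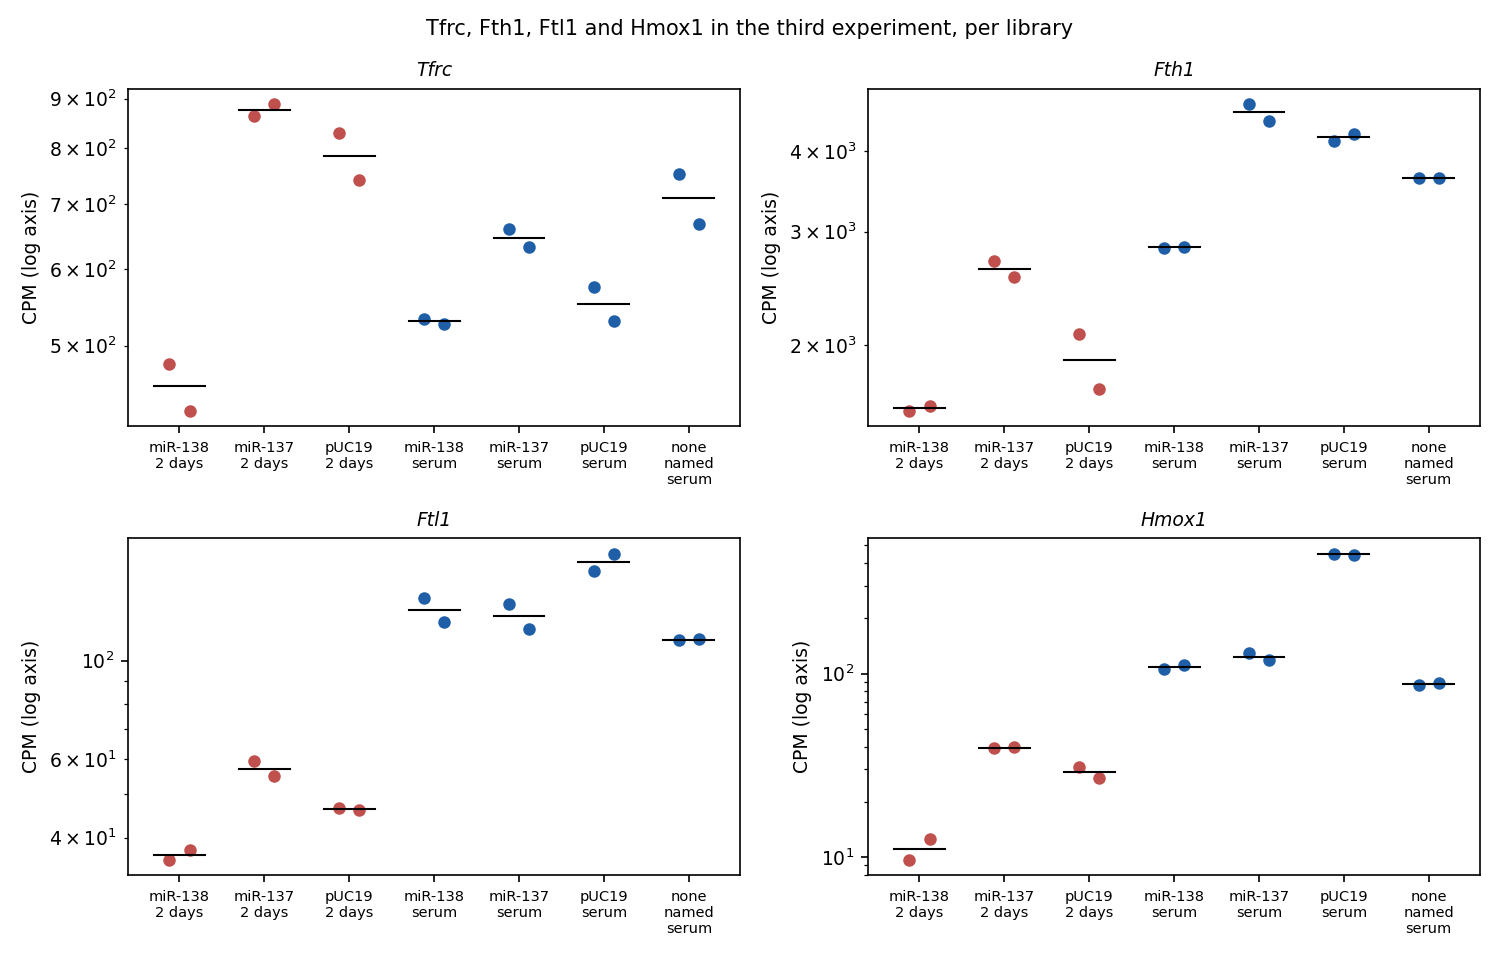
Tfrc, Fth1, Ftl1 and Hmox1 in CPM on log axes in each library of the third experiment (points; lines are group means), all in DKO cells; red points are libraries 2 days without serum and blue points libraries in serum. Hmox1 is highest with pUC19 in serum (451 and 443 CPM) and lowest with miR-138 mimic at 2 days (9.62 and 12.5 CPM), where Tfrc is lowest too (479 and 428 CPM).

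Serum withdrawal was then compared within each transfected group, 2 days without serum against in serum. Serum was removed 48 h after transfection, and the third experiment has no untransfected cells without serum. Time since transfection may thus differ as well, and it cannot be told apart from loss of serum in these groups. Ferritin and Hmox1 fell in all 3 groups. Fth1 fell by 0.83 with miR-138 mimic (SE 0.07, adjusted p = 2.36e-09), by 0.81 with miR-137 mimic (SE 0.07, adjusted p = 3.35e-09) and by 1.15 with pUC19 (SE 0.07, adjusted p = 2.74e-11). Ftl1 had 35.6 and 37.5 CPM at 2 days and 138 and 122 CPM in serum with miR-138 mimic, at -1.83 ± 0.08. The same gene had 59.4 and 54.9 CPM at 2 days and 134 and 118 CPM in serum with miR-137 mimic, at -1.14 ± 0.08, and 46.5 and 46.1 CPM at 2 days and 159 and 174 CPM in serum with pUC19, at -1.85 ± 0.08. Hmox1 fell by 3.31 with miR-138 mimic (SE 0.09, adjusted p = 3.75e-16), by 1.65 with miR-137 mimic (SE 0.08, adjusted p = 7.78e-13), and with pUC19 it stood at -3.94 ± 0.08 (15.3-fold lower, adjusted p = 4.99e-18). Slc11a2 and Slc39a14 fell in each group as well, Slc11a2 by 0.22 with miR-138 mimic, 0.61 with miR-137 mimic and 0.41 with pUC19, and Slc39a14 by 0.56, 0.6 and 0.49 in that order, with the largest adjusted p at 0.00183.

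Tfrc took the other direction in the cells with miR-138 mimic. It rose with miR-137 mimic by 0.44 ± 0.07 (adjusted p = 1.07e-05) and with pUC19 by 0.51 ± 0.07 (adjusted p = 2.35e-06), and it fell with miR-138 mimic by 0.22 (SE 0.07, adjusted p = 0.00749), with 479 and 428 CPM at 2 days and 533 and 526 CPM in serum. The fall was lost without miR-138 library 2 at 2 days (-0.14, adjusted p = 0.145). Slc40a1 stood at 3.36 with miR-138 mimic and -1.2 with pUC19, both as a description, and had -0.09 ± 0.16 with miR-137 mimic (95% interval -0.41 to 0.23). Aco1 rose with miR-137 mimic by 0.34 ± 0.08 (adjusted p = 0.00077) and with pUC19 by 0.5 ± 0.08 (adjusted p = 1.27e-05) and had 0 ± 0.07 with miR-138 mimic (95% interval -0.14 to 0.14), whereas Ireb2 rose with miR-138 mimic by 0.25 ± 0.06 (adjusted p = 0.000608) and with pUC19 by 0.21 ± 0.06 (adjusted p = 0.00309). With miR-138 mimic 1 of 9 genes rose and 6 fell, against 31.1% and 32.2% of genes. With miR-137 mimic 2 of 10 rose and 5 fell, against 33.2% and 32.6%, and with pUC19 3 of 9 rose and 5 fell, against 28.4% and 31.3%.

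Markers of other cell types moved with serum withdrawal in these cells. Fibroblast markers summed to 36.5 to 37.8 CPM at 2 days and 9.93 to 12.1 CPM in serum with miR-138 mimic, to 14.3 to 14.9 CPM and 4.07 to 4.79 CPM with miR-137 mimic, and to 24 to 26.2 CPM and 7.07 to 7.21 CPM with pUC19. Of the 4 tested, 2 rose with miR-138 mimic, 2 with miR-137 mimic and 3 with pUC19, and Col3a1 was at 0. Glial markers summed to 17.2 to 18.6 CPM at 2 days and 4.29 to 5.41 CPM in serum with miR-138 mimic, to 7.56 to 9.08 CPM and 1.86 to 2.57 CPM with miR-137 mimic, and to 9.8 to 10.7 CPM and 4.42 to 4.71 CPM with pUC19, and 2 of the 3 tested rose in each group. Neuronal markers summed to 133 to 148 CPM at 2 days and 75 to 79 CPM in serum with miR-138 mimic. With miR-137 mimic the sums were 347 to 367 CPM and 162 to 170 CPM, and with pUC19 103 to 126 CPM and 111 CPM. Of the 8 tested, 5 rose and 1 fell with miR-138 mimic. With miR-137 mimic 5 rose and 3 fell, and with pUC19 3 rose and 2 fell. The part of these markers in the changes of the iron genes was not tested.

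The difference between the mimics in this response was tested as an interaction, miR-138 minus miR-137, chosen after seeing the data. Tfrc had -0.66 ± 0.1 (adjusted p = 3.53e-05), Hmox1 -1.67 ± 0.12 (adjusted p = 1.07e-08), Ftl1 -0.69 ± 0.11 (adjusted p = 9.98e-05) and Slc11a2 0.39 ± 0.08 (adjusted p = 0.00119). Fth1 had -0.02 ± 0.1 (95% interval -0.21 to 0.17). Of 9 genes 2 were higher and 4 lower, against 13.9% and 16.9% of genes, and the calls of Aco1 (-0.34 ± 0.11) and Ireb2 (0.22 ± 0.08) were lost in 5 and in all 8 of the 8 fits that leave out a library, Aco1 without either miR-137 library in serum, miR-138 library 1 in serum, miR-137 library 1 at 2 days or miR-138 library 2 at 2 days. In the interaction of miR-137 minus pUC19, also added, Hmox1 had 2.29 ± 0.11 (adjusted p = 7.31e-11), Ftl1 0.71 ± 0.11 (adjusted p = 0.000103) and Fth1 0.34 ± 0.1 (adjusted p = 0.0138). That made 3 of 9 genes higher and 0 lower, against 11.9% and 11.4% of genes, and Fth1 was lost without miR-137 library 1 at 2 days, miR-137 library 2 in serum or pUC19 library 2 at 2 days (0.21 without the last). No member of the list was lower at an unadjusted p under 0.05 except Slc11a2 (-0.19 ± 0.08) and Ireb2 (-0.18 ± 0.08).

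Ferritin reads need care. Reads that map to several places were not counted, and they made up 6.77 to 7.95% of reads in the first and second experiments, sequenced as 75-bp pairs, and 16.4 to 18.5% in the third, sequenced as single 50-bp reads. Ftl1 had 112 CPM in untransfected DKO cells of the third experiment and 1110 CPM in DKO cells in serum of the first, and Ncoa4 had 6.43 CPM and 26.4 CPM in the same groups. Ferritin-like copies took 0 to 155 reads per library (Ftl1-ps1), 0 to 26 (Fth-ps2) and 0 to 2 (Ftl2-ps), so reads lost to copies cannot be sized and the levels of Fth1 and Ftl1 are uncertain. Changes within an experiment compare libraries counted the same way. For Ncoa4 the other strand held 0.14 to 16.5% of its reads per library, against at most 1.36% for each of the other 9 genes.

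A wider set of 65 iron and heme genes was read beside the list, of which 47 or 48 were measured in each experiment. It was chosen with results of these data known. In WT cells at 4 days 10 of 47 rose and 23 fell (median log2 fold change -0.23, against 0.04 over all genes), beside 36.2% and 34.7% of all genes. Of 12 genes for mitochondrial iron and iron-sulfur clusters, 0 rose and 9 fell, among them the glutaredoxin Glrx5 (-1.71, adjusted p = 1.5e-08) and the outer-membrane protein Cisd1 (-1.46, adjusted p = 2.63e-08). Among 14 heme genes 2 rose and 8 fell, led by the heme synthesis enzyme Alad (-1.62, adjusted p = 1.47e-09). The iron chaperones Pcbp2 (-1.1, adjusted p = 1.44e-08) and Pcbp1 (-0.66, adjusted p = 3.22e-06) fell too, in a list of 3 in which Fbxl5, which targets Ireb2 for breakdown, rose by 0.31 (adjusted p = 0.0133). Of 6 uptake genes 3 rose and 0 fell, among them the second transferrin receptor Tfr2, with 12.9 ± 3.41 CPM at 4 days and 2.96 ± 0.959 CPM in serum (SD, n = 3 each; 2.12, adjusted p = 1.57e-05). WT cells at 1 day had 11 of 48 genes higher and 19 lower, beside 20.4% and 20.3% of all genes, with Alas1, the first enzyme of heme synthesis, higher by 0.87 (adjusted p = 1.83e-05) and Flvcr1, a heme exporter, lower at -0.66 (adjusted p = 6.16e-05).

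The NRF2 and BACH1 list, whose known targets overlap with the iron genes, held 12 measured genes. In DKO cells at 1 day 11 of 12 were higher than in WT cells and 0 lower (median 0.77, against 0.01 over all genes), beside 21.9% and 23% of all genes. The list was led by the cystine transporter Slc7a11, with 92.1 ± 8.11 CPM in DKO cells and 17.4 ± 0.315 CPM in WT cells (SD, n = 2 each; 2.4, adjusted p = 3.66e-10), Gclc (1.06, adjusted p = 1.6e-08) and the quinone reductase Nqo1 (2.56, adjusted p = 1.99e-08). In serum 7 of 12 were higher and 1 lower in DKO cells, beside 19.2% and 21.5%. With pUC19 against no transfection named 7 of 12 were higher and 1 lower, beside 10.7% and 15.5%, Slc7a11 having 179 ± 8 CPM with pUC19 and 38.8 ± 3.68 CPM without (SD, n = 2 each; 2.2, adjusted p = 1.21e-13). Against pUC19 in serum, 0 of 12 were higher and 8 lower with miR-138 mimic, beside 28.7% and 27.3%, and 1 higher and 8 lower with miR-137 mimic, beside 23.1% and 22.5%, with Slc7a11 at -1.76 and -1.99 and the glutathione synthesis subunit Gclm at -0.68 and -1.44 for the mimics in that order. Against DKO cells with no transfection named the list had 3 higher and 4 lower with miR-138 mimic (median -0.01), beside 29.5% and 30.6%, and 4 higher and 5 lower with miR-137 mimic (median -0.1), beside 23.7% and 27.5%, so these counts depend on the control. At 2 days without serum 2 of 12 rose and 8 fell with pUC19, beside 28.4% and 31.3%. Gclm (-1.98), Slc7a11 (-2.47) and the thioredoxin reductase Txnrd1 (-1.45) led that fall. With miR-138 mimic 2 rose and 9 fell, beside 31.1% and 32.2%, and with miR-137 mimic 3 rose and 6 fell, beside 33.2% and 32.6%. In the first experiment at 1 day, 7 rose and 3 fell in DKO cells, beside 19.9% and 20.4%. There 4 rose and 5 fell in WT cells, beside 20.4% and 20.3%. In miR-138 against miR-137 mimic cells, which needs no control, 7 of 12 were higher and 2 lower in serum, beside 32.7% and 30.7%. At 2 days 1 was higher and 7 lower, beside 30.8% and 30.8%. The interaction of these mimics had 0 higher and 10 lower, beside 13.9% and 16.9%. These counts describe the list and were not tested as a set.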

How the data were processed

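RNA-seq of 28 libraries was used, in 3 experiments. The authors deposited read counts per gene as integers, in STAR's ReadsPerGene layout with a column for each strand setting, and the column for reverse-stranded libraries was used. STAR and the build mm9 are named per the submitters' processing notes, with versions and annotation not given in the sources used here. Reads that map to several places were not counted. Of 37310 identifiers, 32620 (87.4%) matched a symbol. The 6 small RNA libraries are not used here. The 10 genes and all lists were chosen with earlier results of these data known.

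Each experiment was fitted alone over all its groups with edgeR 4.0.16 in R 4.3.3 (filterByExpr with a minimum count of 10 and a total of 15, TMM scaling, quasi-likelihood test), and p-values were adjusted by Benjamini-Hochberg over all genes tested, with calls at 0.05. Errors of log2 fold changes are SE. Likeness used log2 CPM with a prior count of 2. Named genes were the 10 members, up to 3 per wider list and comparison with the lowest adjusted p, the 5 genes most like Slc40a1 by Pearson's r at a mean of at least 5 CPM, and the miRNA host loci. Predicted, clone and accession-like names were left out of that likeness and of the rank among named genes. Genes just outside the rank of Slc40a1 and a few further genes of the wider lists were named after their values were seen. Alternatives were DESeq2 1.42.0, RLE scaling, no filter on low counts, unstranded counts, the compared libraries alone, a replicate block and each library left out in turn, and 4 comparisons were added after seeing the data. The fit was tested on simulated data with 200 genes changed 2-fold. Of these, 68% were recovered for WT cells at 1 day against serum, 77% at 4 days and 82% for pUC19 against no transfection named. False calls made up 2.86%, 6.67% and 3.53% of calls in that order. Far fewer genes were changed there than were called in the data, so scaling under broad change was not tested. Counting error, p-values and depth concern reads, since the libraries carry no molecular identifiers.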

Additional observations from a re-analysis of the deposited data

Results flagged for a closer look

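The difference between cells without serum and in serum varied between groups of cells for several iron genes, by the interaction test of edgeR. Between DKO and WT cells at 1 day, the log2 difference of the responses was 1.61 for Hmox1, 0.48 for Ftl1, 0.37 for Fth1 and -0.46 for Tfrc. Between miR-138 and miR-137 mimic cells at 2 days, it was -1.67 for Hmox1, -0.69 for Ftl1, -0.66 for Tfrc, 0.39 for Slc11a2, -0.34 for Aco1 and 0.22 for Ireb2. Between miR-137 mimic and pUC19 cells at 2 days, it was 2.29 for Hmox1, 0.71 for Ftl1 and 0.34 for Fth1. The last 2 sets share the miR-137 libraries. The call of Ireb2 was lost under 10 of 13 alternatives and that of Aco1 under 5 of 13, and the genotype difference of Tfrc was lost under 7 of 13 and had -0.23 without DKO library 2 in serum. Ftl1 between genotypes was lost under 1 of 13, and Fth1 between miR-137 mimic and pUC19 cells under 3 of 13.

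Slc40a1 and Tfrc went in opposite directions in miR-138 mimic and pUC19 cells when serum was withdrawn for 2 days. Slc40a1 had 3.36 with miR-138 mimic and -1.2 with pUC19, and Tfrc had -0.22 with miR-138 mimic and 0.51 with pUC19, with every library of each group on the same side. This difference was not tested, since it uses the contrast that chose the list.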

How the results depend on the processing

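No fold change of a member that passed in either fit turned direction under any alternative run. Among those that passed in neither, 46 turned sign, from at most 0.14 to at most 0.19 in size on the log2 scale. Among the recomputed fold changes of members, 1974 kept their side of the threshold, 106 lost a call and 20 gained one, and the cause was not tested. Counts of members called moved by over 1.5 times only in fits that left out 1 library. With each library left out they ran from 2 to 7 for DKO cells at 1 day against serum (5 with all libraries), 2 to 4 for the genotype interaction (4), 5 to 6 for pUC19 against no transfection named (8), and 3 to 5 for miR-137 mimic against pUC19, both in serum (5) and at 2 days (5). The lowest of these came without DKO library 1 at 1 day, without WT library 2 in serum, without pUC19 library 2 or either untransfected library, without miR-137 library 1 or pUC19 library 2 in serum, and without miR-137 library 1 at 2 days. Over all genes the count of calls ran from 615 to 2602 for the genotype interaction (1325 with all libraries) and from 1730 to 2764 for pUC19 against no transfection named (3321), where 1730 came without untransfected library 1. A group left with 1 library was assumed to vary like the others. The main fits did not pair libraries by replicate number. Same-numbered libraries had correlations of their deviations of 0.049 to 0.179 in the first experiment and -0.084 to 0.054 in the second. The third had -0.343 to 0.336. With the block, calls over all genes went from 1325 to 1751 for the genotype interaction and from 9417 to 9192 for WT cells at 4 days. Whether the numbers mark shared batches was not tested. With the replicate block, Hmox1 in DKO cells at 1 day passed (0.28, adjusted p = 0.022 by edgeR), and so did Tfrc for miR-137 mimic against pUC19 at 2 days (0.16, adjusted p = 0.015) and Aco1 (-0.18, adjusted p = 0.0347) and Tfrc (-0.14, adjusted p = 0.0303) for miR-137 mimic against no transfection named, while Aco1 in WT cells at 4 days did not (-0.22, adjusted p = 0.0617), and no other call of a member changed. The block left 6 members called for DKO cells at 1 day and 8 for pUC19 against no transfection named. Depth limits Ncoa4 in the third experiment and Slc40a1 in WT cells, the second with at most 166 reads per library. It also limits Slc40a1 with miR-137 mimic (108 and 88 reads in serum, 74 and 95 at 2 days). With pUC19 at 2 days Slc40a1 had 165 and 151 reads.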
